A study of Mus musculus with 14 samples.

Results

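Gene expression was compared between the hippocampi of mice carrying 1 altered copy of Kmt2d and those of wild-type mice, over vehicle-treated and drug-treated animals together. The comparison took in all 14 RNA-seq libraries of the series that were analysed here, chosen by the genotype label alone: 6 libraries labelled KMT2D+/bGeo against 8 labelled KMT2D+/+. All mice were C57BL6, 30 days old at harvest, and had been gavaged for 2 weeks from 2 weeks of age with methylcellulose alone or with TAK-418 in methylcellulose at 1 mg/kg/day. The 6 mutant libraries comprised 3 from vehicle-treated and 3 from TAK-418-treated animals, and the 8 wild-type libraries comprised 3 and 5, although the study's design text gives 3 to 4 per group. Numbers after a group name below only tell its libraries apart. Each library has a number of its own in its title, but the labels do not say whether each is a separate animal and give neither sex nor litter, so p-values measure only the spread between these libraries. The position of the bGeo insertion in Kmt2d was not given in the sources used here.

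KMT2D is a methyltransferase that places methyl groups on lysine 4 of histone H3, mainly at enhancers, and heterozygous loss of the human gene causes Kabuki syndrome, which includes intellectual disability. The bGeo name refers to a fusion of beta-galactosidase with neomycin resistance, a cassette used to trap genes. TAK-418 inhibits LSD1 (gene Kdm1a), a demethylase that removes methyl groups from the same lysine. The hippocampus adds new granule neurons to the dentate gyrus after birth, and granule and pyramidal cells are its principal neurons.

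The values compared were FPKM-like abundances of assembled transcripts, summed per annotated gene and scaled between libraries, and a gene with no assembled transcript in a library is listed there at 0. Such a 0 does not show absence: of the 7842 genes with a mean of at least 10, 172 (2.19%) were listed at 0 in at least 1 library. Library totals inferred from the smallest steps of the abundances were 35.1 to 59.98 M (1 M is 1000000; a relative depth), apart from 168 M in the TAK-418 wild type 1. No difference by genotype passed the test for relative depth, assembled transcripts, introns or genes with a value (exact permutation tests within treatment, two-sided, p = 0.893, 0.540, 0.726 and 0.826, all 0.893 after Benjamini-Hochberg adjustment over the 4). Without the TAK-418 wild type 1, mutants had 2875 more assembled transcripts (unadjusted exact p = 0.0314). Xist was listed in 2 of the 6 mutant and 4 of the 8 wild-type libraries. By group, these were 2 of 3 vehicle wild types, 1 of 3 vehicle mutants, 2 of 5 TAK-418 wild types and 1 of 3 TAK-418 mutants. Eif2s3y, on the Y chromosome, was at 0 in these 6 libraries and at 29.3 to 40.7 in the other 8. These 2 genes thus split the libraries by apparent sex, unevenly between the groups. All 12 markers of mature granule cells and all 12 of the CA pyramidal fields had values in at least 3 libraries, with summed abundances of 360 to 458 and 686 to 743 per library.

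Some libraries stood apart before any gene was compared. In the vehicle mutant 1 and the TAK-418 mutant 2, 40.0% and 31.4% of the summed abundance lay at nuclear positions assigned to no gene, against 2.98% to 5.04% in the other 12 libraries. A ribosomal RNA locus on chromosome 17 (chr17:39846353-39848827, GRCm38) took 3.95% and 4.19% of the abundance in those 2 libraries and at most 0.205% in the others. Small RNA loci such as Rn7sk were also highest there, and the pair is called the 2 mutants high in small RNA loci below. The pair were also the only mutant libraries with Xist, at 82.1 and 56.1. Fits without them therefore hold only mutants with Xist at 0, against wild types with and without it. In such a fit the median log2 difference of the sex-linked genes was 1.71, against 0.64 with all libraries. The choroid plexus list, led by Ttr (transthyretin, secreted by choroid plexus epithelium), summed to 5919 in the vehicle mutant 1 and 7315 in the vehicle wild type 3. The same sum was 1114 in the vehicle mutant 3 and 740 in the TAK-418 mutant 1, and 86.7 to 149 in the remaining 10 libraries. The part of these differences in the results below was not tested except where a value without the libraries is given.

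**Figure D1:**
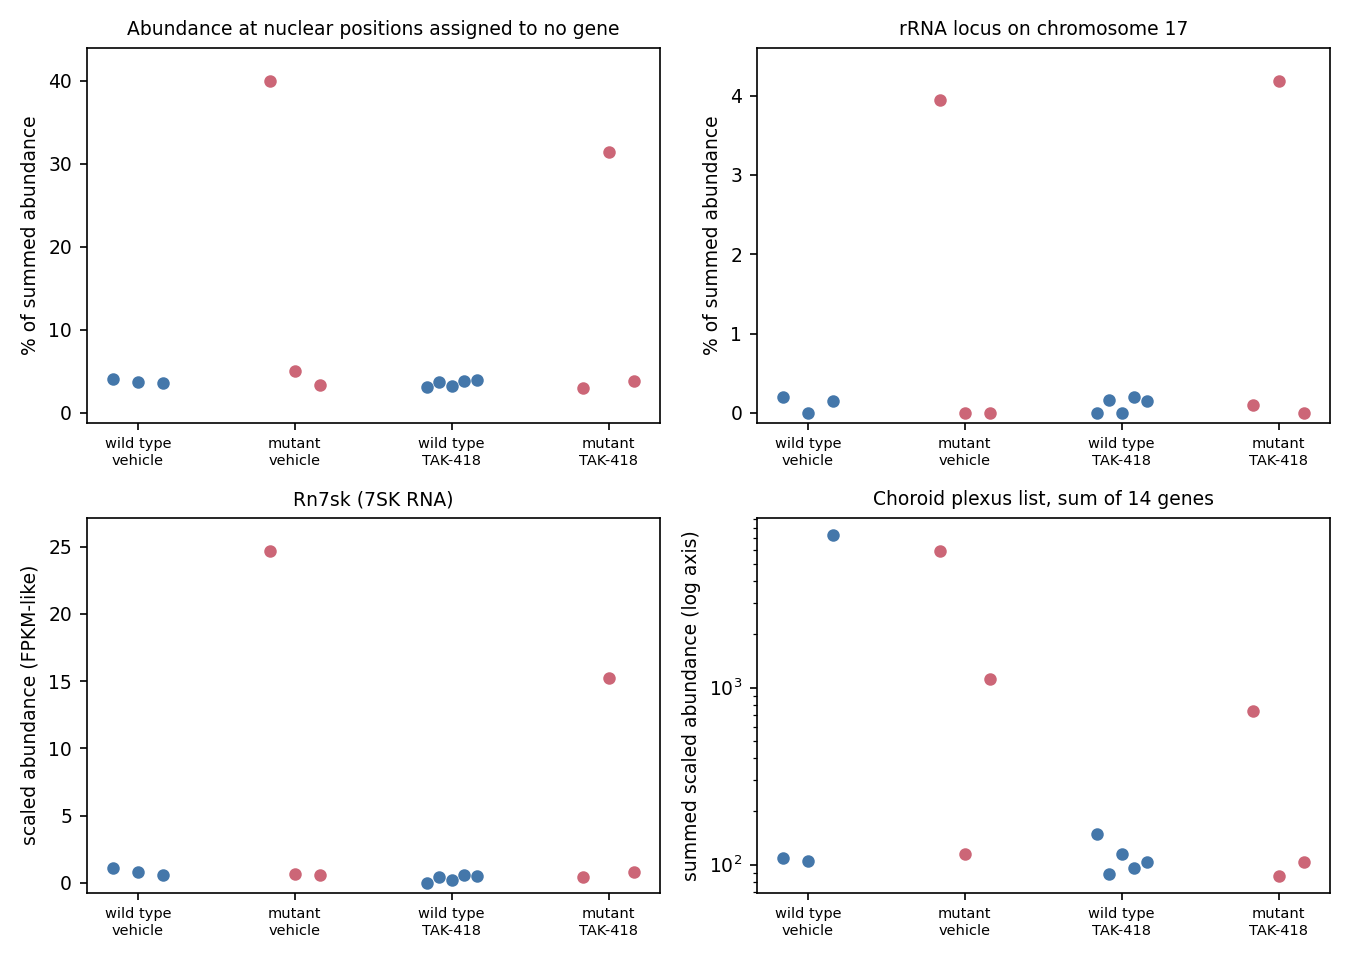
Measures by library and group: the percentage of summed abundance at nuclear positions assigned to no gene, the percentage at the rRNA locus, the scaled abundance of Rn7sk, and the summed scaled abundance of the 14 choroid plexus genes on a log axis. Points are libraries, blue for wild type and red for mutant. The vehicle mutant 1 and the TAK-418 mutant 2 stand above the other 12 libraries in the first 3 panels, at 40.0% and 31.4% in the first.

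Kmt2d itself (chr15:98831669-98871204, minus strand, GRCm38) was assembled in every library, with a main transcript of 55 exons and 17759 to 18818 bases. Its scaled abundance was 14.04, 14.3 and 13.8 in the vehicle wild types and 13.8, 18.1, 12.6, 14.5 and 17.5 in the TAK-418 wild types. In the mutants it was 10.7, 10.8 and 14.5 under vehicle and 14.6, 13.4 and 9.38 under TAK-418. Of the 6 mutant libraries, 3 lay below all 8 wild types, while the others fell within the wild-type range. The mean was 12.2 ± 2.22 (SD, n = 6) in mutants and 14.8 ± 1.91 (SD, n = 8) in wild types.

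The difference in Kmt2d on the log2(value + 0.9) scale was -0.26 ± 0.108 (SE), with an unadjusted p of 0.0319 and an adjusted p of 0.866 over all genes (limma, Benjamini-Hochberg). It was -0.23 among vehicle libraries and -0.29 among TAK-418 libraries. An exact two-sided permutation of the genotype labels within each treatment gave p = 0.04375 over 1120 assignments. Leaving out each library in turn gave exact p-values of 0.0214 to 0.155. It was above 0.05 without any of the 3 vehicle wild types, the TAK-418 wild types 2, 4 or 5, the vehicle mutants 1 or 2, or the TAK-418 mutant 3, and highest without the last. As the position of the insertion was not given, the summed value covers sequence on both sides of it and of both alleles. The authors' deposited tables placed Kmt2d at 2.54 in wild types and 2.42 in mutants under vehicle, and at 2.47 and 2.23 under TAK-418. The log2 differences there were -0.07 and -0.15, with q-values of 1.00 and 0.999. These deposited group values are lower than the summed abundances above, and the reason was not tested.

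Kdm1a, which encodes the enzyme that TAK-418 inhibits, was at 33.5 ± 1.79 in mutants and 34.3 ± 1.15 in wild types (SD, n = 6 and 8). The log2 difference was -0.03, with a 95% interval of -0.10 to 0.05, an adjusted p of 0.912 (limma) and an exact permutation p of 0.464. The mutant range, 30.03 to 35.04, overlapped the wild-type range of 32.3 to 35.9.

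Across the transcriptome, no gene passed the test for genotype. Of 18735 genes with any value, 16580 had a value in at least 3 libraries and were tested, and 0 (0.0%) had an adjusted p under 0.05 (limma). The smallest adjusted p was 0.402. At an unadjusted p under 0.05 there were 948 genes (5.72%), 456 higher (2.75%) and 492 lower (2.97%) in mutants. The median size of the log2 difference was 0.07, and the size at the 95th percentile was 0.41. The 95% interval of the difference lay within ±1 on the log2 scale for 15443 genes (93.1%) and within ±0.5 for 12407 genes (74.8%), and reached beyond these limits for the rest. The median interval extended 0.20 to either side of the estimate.

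**Figure D2:**
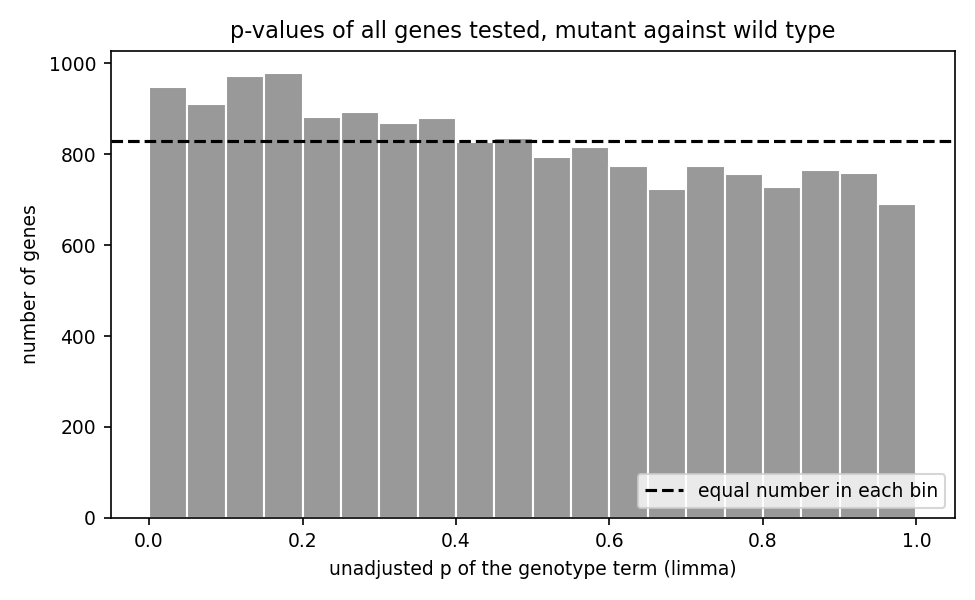
Histogram of the unadjusted limma p-values of the genotype term over the 16580 genes tested, in 20 bins of width 0.05. The dashed line is the 829 genes that each bin would hold if all were equal, and the first bin holds 948 genes.

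The vehicle and TAK-418 comparisons share no library, so the genotype difference can be taken in each and set side by side. Their p-values both come from 1 limma fit of the 4 groups, with 1 estimate of spread per gene over all its libraries. They are therefore not independent, and a gene with a low spread can pass under both treatments in either direction. The differences had the same sign under both treatments for 8640 genes (52.1%). Across genes, Pearson's r between them was 0.0761, and 0.0249 over the 13274 genes listed above 0 everywhere, given as a description because genes are not independent. Of 908 genes at an unadjusted p under 0.05 under vehicle, 502 (55.3%) had the same sign under TAK-418, and of 821 such genes under TAK-418, 431 (52.5%) had the same sign under vehicle. Past that unadjusted threshold under both treatments were 73 genes, 44 in the same direction and 29 in opposite directions. Without the vehicle mutant 1 and the TAK-418 mutant 2 these counts were 31 and 31 of 62. Of the 16 genes described next, which were chosen for their small p over both treatments, all but Gng7 are among those 44.

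A test of whether the genotype difference itself differed between treatments called 1 gene (0.00603% of those tested), Pcdhb13, a member of the clustered protocadherins, which are neuronal adhesion proteins. It was listed at 2.29, 1.71 and 1.53 in the 3 TAK-418 mutants and at 0 in all other 11 libraries (interaction adjusted p = 0.00194, limma). It entered the fit only through the group where it is high, and the other values are 0s with no spread, so that p is no support for a difference. Its cluster holds many similar genes, so its value is uncertain. Without any of the 3 TAK-418 mutants it was listed in too few libraries to be tested. Within treatments, 0 genes (0.0%) were called between vehicle mutants and vehicle wild types and 2 (0.0121%) between the TAK-418 groups. The second of those 2 was Tspan7, a membrane tetraspanin. Tspan7 was at 544, 565 and 561 in the TAK-418 mutants and at 694 to 739 in the TAK-418 wild types, a log2 difference of -0.34 with an adjusted p of 0.0307 (limma). Under vehicle it was at 668 to 717 in mutants and 640 to 687 in wild types, where the log2 difference was 0.07. Its interaction did not pass (adjusted p = 0.195, limma), and the gene was picked out after its values were seen.

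The 8 genes with the smallest p in each direction are given as values, since none of them passed the test. Penk, the precursor of the enkephalin opioid peptides (chr4:4133531-4138819, minus strand), had the smallest p among genes with a value in every library. Its scaled abundance was 18.0, 17.3 and 17.7 in the vehicle wild types and 21.7, 23.3 and 22.2 in the vehicle mutants. Under TAK-418 it was 19.3, 19.1, 20.3, 21.4 and 16.98 in wild types and 21.5, 25.6 and 26.6 in mutants. All 6 mutants lay above all 8 wild types, although the highest wild type and the lowest mutant were 21.4 and 21.5.

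The log2 difference of Penk was 0.33 ± 0.0546 (SE), with an unadjusted p of 4.85e-05 and an adjusted p of 0.402 (limma). It was 0.33 under each treatment. Penk was a single transcript of 3 exons in all 14 libraries. Penk in the authors' deposited tables stood at 13.2 in wild types and 16.05 in mutants under vehicle, and at 14.7 and 18.2 under TAK-418, with q-values of 1.00 and 0.264, and so was not called there.

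Mvb12a, a subunit of the ESCRT-I complex that sorts membrane proteins in endosomes, was at 17.2 to 19.9 in mutants (median 19.2) and 13.2 to 17.6 in wild types (median 15.4). A single wild type, the TAK-418 wild type 3, reached the mutant range. Its log2 difference was 0.27 (adjusted p = 0.562, limma), and the authors' deposited tables gave 0.12 and 0.06 under vehicle and TAK-418. Rtp4, an interferon-induced chaperone of membrane receptors, was at 2.12 to 2.51 in mutants and 1.60 to 2.05 in wild types, with no overlap and a log2 difference of 0.26 (adjusted p = 0.699). Slc26a10, of the SLC26 anion transporter family, was at 7.26 to 11.2 in mutants and 5.99 to 9.18 in wild types. Its groups separated within each treatment, and the log2 difference was 0.28 (adjusted p = 0.660), though the authors' deposited table for TAK-418 gave -0.08.

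The other 4 of the 8 higher genes were listed in every mutant but in at most 4 of the 8 wild types. Gm4841 was at 3.54 to 6.25 in the 6 mutants, at 4.40 in the vehicle wild type 1, and at 0 in the other 7 wild types. In the 6 mutants and the vehicle wild type 1, its whole value came from a single-exon piece of 108 to 110 bases. The authors' deposited tables had Gm4841 at 0.0426 and 0.0456 in wild types and mutants under vehicle and at 0.0645 and 0.0688 under TAK-418, with q-values of 1.00. Without the vehicle wild type 1, Gm4841 had an adjusted p of 3.31e-07 (limma) and no other gene passed, but it was then listed only in mutants and set against 0s with no spread, so that p is no support for a difference. The pseudogene Nlrp5-ps was listed in 6 of 6 mutants and 4 of 8 wild types, the noncoding Gm15270 in 6 and 3, and Dbil5 in 6 and 2, with mutant means of 0.918, 0.582 and 0.970.

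Among the 8 lower genes was Rbfox3, the splicing factor known as the neuronal marker NeuN (chr11:118489762-118911597, minus strand), at 82.0 to 91.2 in mutants (median 87.3) and 92.9 to 108 in wild types (median 99.9). The groups did not overlap, and the log2 difference was -0.20 ± 0.0389 (SE; adjusted p = 0.562, limma). A 15-exon form of 2851 to 2860 bases was assembled in 5 of the 8 wild types and in 0 of the 6 mutants, beside the 15-exon form of 2992 to 3001 bases found in all 14. With only the highest transcript of each gene the difference turned to 0.16. Rbfox3 in the authors' deposited tables stood at 89.6 in wild types and 86.6 in mutants under vehicle, and at 96.2 and 84.9 under TAK-418, with q-values of 1.00 and 0.808.

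Map2, which binds microtubules in dendrites (chr1:66175273-66442583, plus strand), was at 144 to 167 in mutants (median 163) and 174 to 205 in wild types (median 182). Its groups did not overlap either, and the log2 difference was -0.19 ± 0.0390 (SE; adjusted p = 0.562, limma). The difference was -0.19 under each treatment. Map2 was assembled as 3 to 8 transcripts per mutant library and 5 to 13 per wild-type library, and with only the highest of them the difference turned to 0.29. The authors' deposited tables gave smaller log2 differences for Map2, -0.07 under vehicle and -0.06 under TAK-418.

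Cntn2, an axonal adhesion protein, was at 18.2 to 20.4 in mutants and 20.4 to 26.1 in wild types (log2 difference -0.25, adjusted p = 0.699, limma). Itpr1, the calcium release channel of the endoplasmic reticulum, was at 33.9 to 42.6 in mutants and 40.6 to 48.9 in wild types (-0.21, adjusted p = 0.699). Gng7, a G protein gamma subunit, was at 78.4 to 87.6 in mutants and 83.0 to 96.1 in wild types (-0.13, adjusted p = 0.699). For each of these 3 the lowest wild type lay below the highest mutant, so the groups overlapped. Vehicle and TAK-418 log2 differences in the authors' deposited tables were -0.19 and -0.13 for Cntn2, -0.33 and -0.18 for Itpr1, and -0.10 and -0.16 for Gng7, all with q-values above the threshold of 0.05.

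Ddr2, a collagen-binding receptor tyrosine kinase, was at 0.977 to 2.46 in mutants and 2.12 to 3.93 in wild types, a log2 difference of -0.59 (adjusted p = 0.562, limma). Ddr2 differed by -0.11 and -0.20 in the authors' deposited tables. Tubb6, a beta tubulin, was listed in 3 of 6 mutants and 8 of 8 wild types, where a form of 1450 to 2303 bases appeared in 6 wild types and 0 mutants. The authors' deposited tables had Tubb6 at 2.45 and 2.65 in wild types and mutants under vehicle and at 2.51 and 2.52 under TAK-418. The antisense RNA CR974462.4 was listed in 4 of 6 mutants and all wild types, at most 0.846, and cannot be told from its overlapping gene without strand, whose use in counting is not stated.

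**Figure D3:**
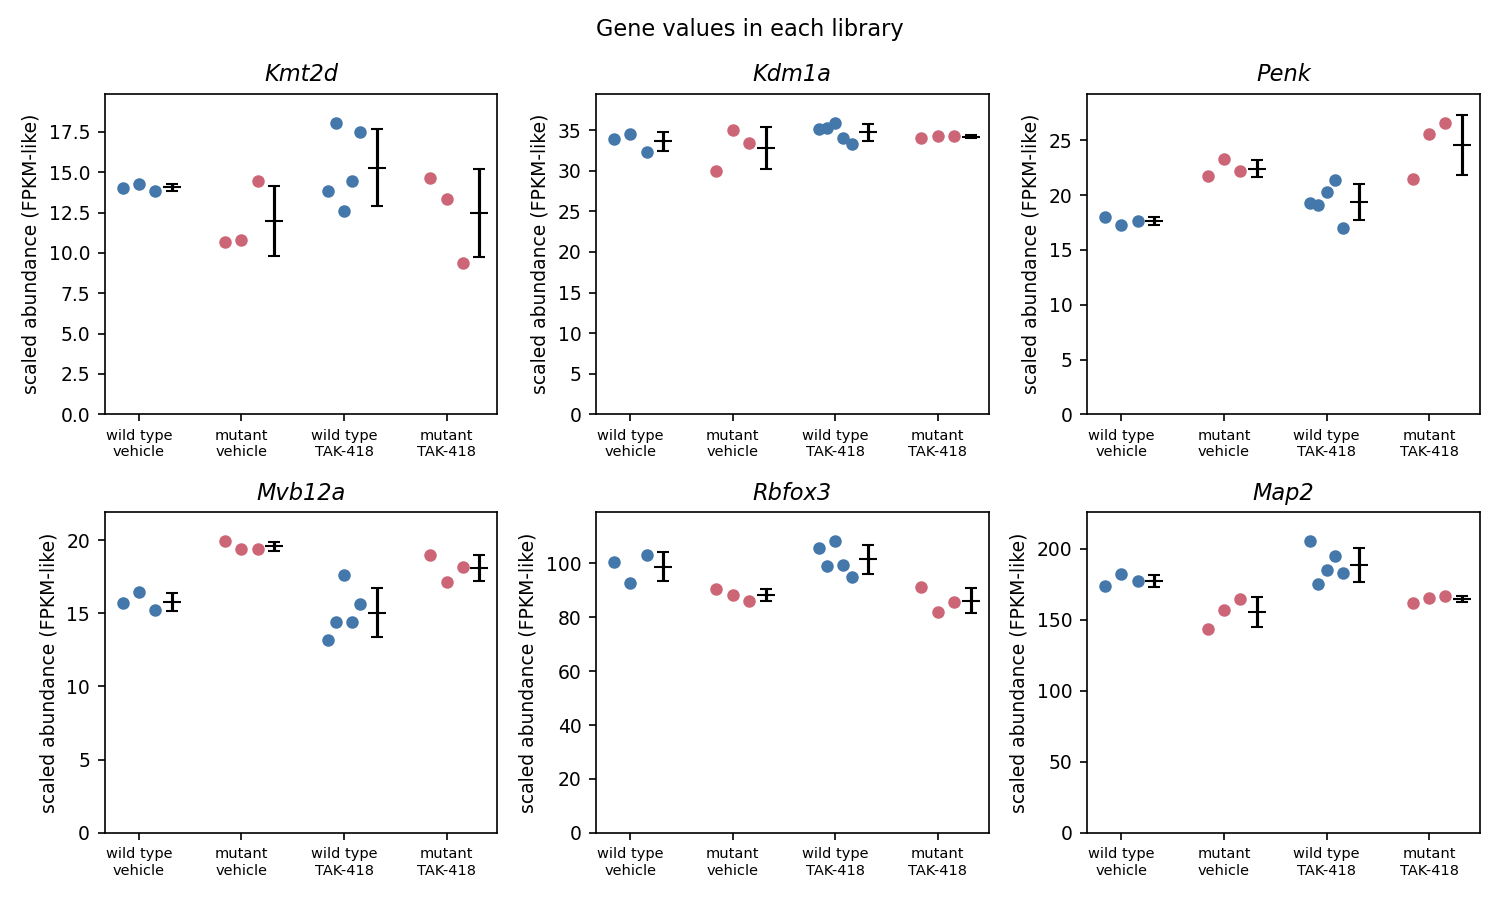
Scaled abundance of Kmt2d, Kdm1a, Penk, Mvb12a, Rbfox3 and Map2 in each library, by group. Points are libraries and the black marks give the group mean ± SD (n = 3, 3, 5 and 3). Penk mutants lie above all wild types, at 21.5 to 26.6, and Rbfox3 and Map2 mutants lie below them.

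**Figure D4:**
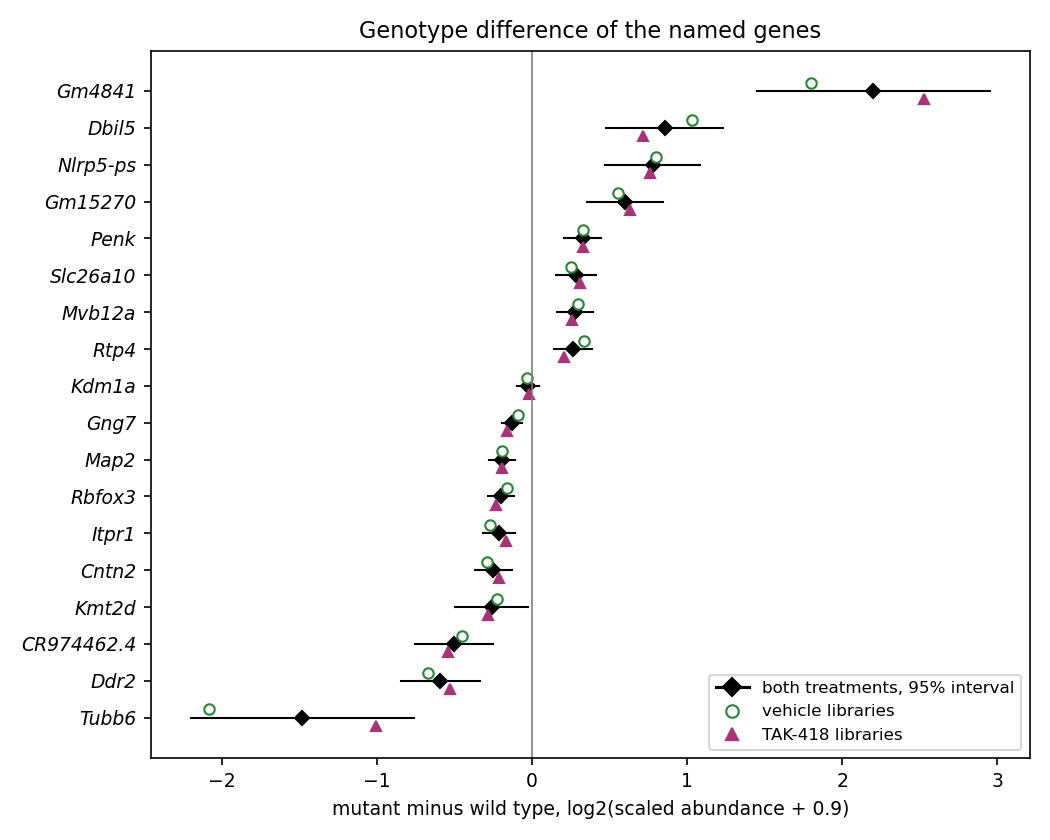
Mutant minus wild type difference on the log2(scaled abundance + 0.9) scale for Kmt2d, Kdm1a and the 16 genes with the smallest p. Diamonds with lines are the estimate over both treatments and its 95% interval, circles the vehicle libraries and triangles the TAK-418 libraries. The vehicle and TAK-418 estimates of every gene shown lie on the same side of 0, and none of the adjusted p-values is under 0.402.

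Counted without a model, 15 genes (0.0905% of those tested) had 6 mutant values that did not overlap the 8 wild-type values, 9 higher (0.0543%) and 6 lower (0.0362%). Beside Penk, Rtp4, Gm15270, Rbfox3, Map2 and CR974462.4, these included Rnase4, a secreted ribonuclease, at 14.5 in mutants and 11.2 in wild types. The list also held Ssrp1, a subunit of the histone chaperone FACT (54.8 and 50.3), and Sae1, a subunit of the SUMO-activating enzyme (58.1 and 55.5). Among the lower genes was Nuak1, a kinase related to AMPK, at 13.9 and 18.6. These 4 genes were chosen after their values were seen, and none passed the test, with adjusted p-values of 0.699, 0.866, 0.866 and 0.759 (limma).

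No enzyme that shares KMT2D's task passed the test. Of 14 genes for H3K4 methyltransferases and their partners, 13 were tested, 0 were called, and 3 had a higher and 10 a lower mutant estimate, with a median log2 difference of -0.06 against 0.00 over all genes. The list includes Kmt2d. Rbbp5, a core subunit of these complexes, was lowest, at 18.0 ± 3.75 in mutants and 21.8 ± 1.76 in wild types (SD, n = 6 and 8), a difference of -0.29 with an adjusted p of 0.866 (limma). Kmt2c, the closest relative of Kmt2d, was at 17.8 ± 1.66 and 16.8 ± 1.29 (0.08), and Dpy30, a subunit common to the complexes, at 28.3 ± 1.79 and 28.7 ± 1.48 (-0.02). Kdm6a, the demethylase in the same complex as KMT2D, was at 8.93 ± 2.58 and 9.11 ± 1.75 (-0.06). Of 16 genes of the LSD1 complex and the H3K4 demethylases, 0 were called, 9 had a higher and 7 a lower estimate, and the median was 0.00.

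No single marker of the hippocampal neurons passed the test, and the lists as such were described but not tested. Of 12 newborn granule neuron genes, 0 were called and 6 were higher, with a median of -0.01. Stmn1, which destabilises microtubules, was at 220 ± 11.5 in mutants and 244 ± 26.8 in wild types (SD, n = 6 and 8; -0.15, adjusted p = 0.866, limma). Dcx, the usual marker of newborn neurons, was at 5.79 ± 0.340 and 6.26 ± 0.995 (-0.06). Of 12 stem and dividing cell genes 0 were called, with a median of 0.01, and Pcna, the replication clamp, was at 47.2 ± 2.66 and 46.5 ± 2.80. Of 12 mature granule cell genes 0 were called, with a median of 0.02, where Calb1, a calcium buffer, was at 94.2 ± 8.81 and 96.1 ± 9.89.

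Tdo2, which breaks down tryptophan, had the smallest p of the mature granule cell list (0.00192), at 6.87 in mutants and 8.47 in wild types, and did not pass (adjusted p = 0.773, limma). Of 12 genes of the CA pyramidal fields 0 were called, with a median of 0.00, and Pcp4 was at 184 ± 8.72 and 185 ± 12.4. Of 14 interneuron genes 0 were called, with a median of 0.04, and Sst, the somatostatin precursor, was at 269 ± 33.2 and 278 ± 52.5. In such tissue, fewer cells of a type and less RNA per cell cannot be told apart.

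Of 11 myelin and oligodendrocyte genes, 0 were called. Over both treatments all 11 estimates were lower in mutants, with a median of -0.13, from -0.35 for Mobp to -0.01 for Mog, and Myrf alone had an unadjusted p under 0.05 (0.0235). Mbp, the myelin basic protein, was at 1971 ± 214 in mutants and 2138 ± 344 in wild types (SD, n = 6 and 8). The summed list ranged from 3834 to 4871 in mutants, inside the wild-type range of 3796 to 6154. Among vehicle libraries 11 of 11 were lower, with a median of -0.15, and among TAK-418 libraries 8 were lower and 3 higher, with a median of -0.13. The vehicle wild types did not all lie above the vehicle mutants. Their sums were 3987, 6154 and 5283 in the vehicle wild types 1, 2 and 3, against 4397, 4584 and 4744 in the vehicle mutants. Genes of such a list vary together, so its members are not separate observations. Without the 2 mutants high in small RNA loci, 9 of 11 were lower and the median was -0.11, and without the 2 libraries highest in choroid plexus genes 9 were lower, with a median of -0.14.

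Immediate early genes, which neurons switch on with activity, had a median of -0.12 with 0 of 11 called and 11 of 11 lower. Among vehicle libraries 11 of 11 were lower, with a median of -0.38, while among TAK-418 libraries 10 of 11 were higher, with a median of 0.11. No gene of the list passed the interaction test. Arc was at 35.7 ± 3.64 in mutants and 40.0 ± 8.19 in wild types, and Egr1 at 42.7 ± 6.39 and 47.2 ± 10.4 (SD, n = 6 and 8). The summed list was highest in the vehicle wild types 2 and 3, at 239 and 228, and 117 to 175 in the other 12 libraries. Junb was listed in 3 of 6 mutants and 4 of 8 wild types, while the authors' deposited tables gave 20.6 to 28.2 in the 4 groups at the highest of its loci. Fos was at 7.05 in wild types and 3.98 in mutants under vehicle in the authors' deposited table (q = 0.0270), and at 4.20 and 4.44 under TAK-418.

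Choroid plexus genes had the largest shift of any list apart from the sex-linked genes, and again 0 were called. All 14 were higher in mutants, with a median of 0.50, led by Ttr at 9.88 to 4927 in mutants and 6.51 to 6396 in wild types. The medians of Ttr were 314 and 26.0. The smallest unadjusted p in the list was 0.296. Without the 2 mutants high in small RNA loci, 10 of 14 were higher and 4 lower, with a median of 0.11. Without the 2 libraries with the highest sums, 12 of 12 tested were higher, with a median of 0.57. Without the 4 libraries with the highest sums, 9 of the 14 could be tested, 5 of them higher and 4 lower, with a median of 0.14. The 5 sex-linked genes had a median of 0.64, with 0 called, and Xist itself was at -1.28 (adjusted p = 0.915, limma). These differences go with the uneven split of the libraries by Xist and Eif2s3y given above.

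Of 11 interferon response genes tested, 0 were called, 8 were higher, 3 were lower and the median was 0.07. Estimates ran from -0.39 for Ifit3 to 0.32 for Isg15. Ifi27 and Ifitm3, the 2 most abundant members, differed by 0.14 and 0.07. Beside Rtp4, Isg15, a ubiquitin-like protein, was at 2.498 ± 0.958 in mutants and 1.74 ± 0.245 in wild types (SD, n = 6 and 8; 0.32, adjusted p = 0.866, limma). With no scaling between libraries 5 of the 11 were higher and the median was -0.01, and without the 2 mutants high in small RNA loci 5 were higher, with a median of -0.05. Of 10 microglial genes 0 were called, 7 were lower and the median was -0.07. Trem2, a microglial lipid receptor, was at 7.84 ± 0.803 and 9.46 ± 0.947 (-0.25, unadjusted p = 0.00427).

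The remaining lists held 0 called genes each. Their medians were -0.01 for 12 hypoxia and glycolysis genes, -0.05 for 8 oligodendrocyte precursor genes, -0.03 for 10 astrocyte genes, 0.01 for 10 endothelial and mural cell genes, -0.07 for 9 thalamic and habenular genes and 0.12 for 5 blood cell genes. Ndrg1, a hypoxia-regulated gene also made by oligodendrocytes, was at 38.0 ± 1.54 in mutants and 42.5 ± 3.55 in wild types (SD, n = 6 and 8; -0.16, unadjusted p = 0.00418). Slc1a2, the main astrocytic glutamate transporter, was at 315 ± 14.2 and 343 ± 31.97 (-0.11, unadjusted p = 0.0793). Aldoc, an astrocytic aldolase, was at 0 in the TAK-418 wild type 1 and at 309 to 543 in the other 13 libraries, so its difference of 0.85 rests on that 0.

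**Figure D5:**
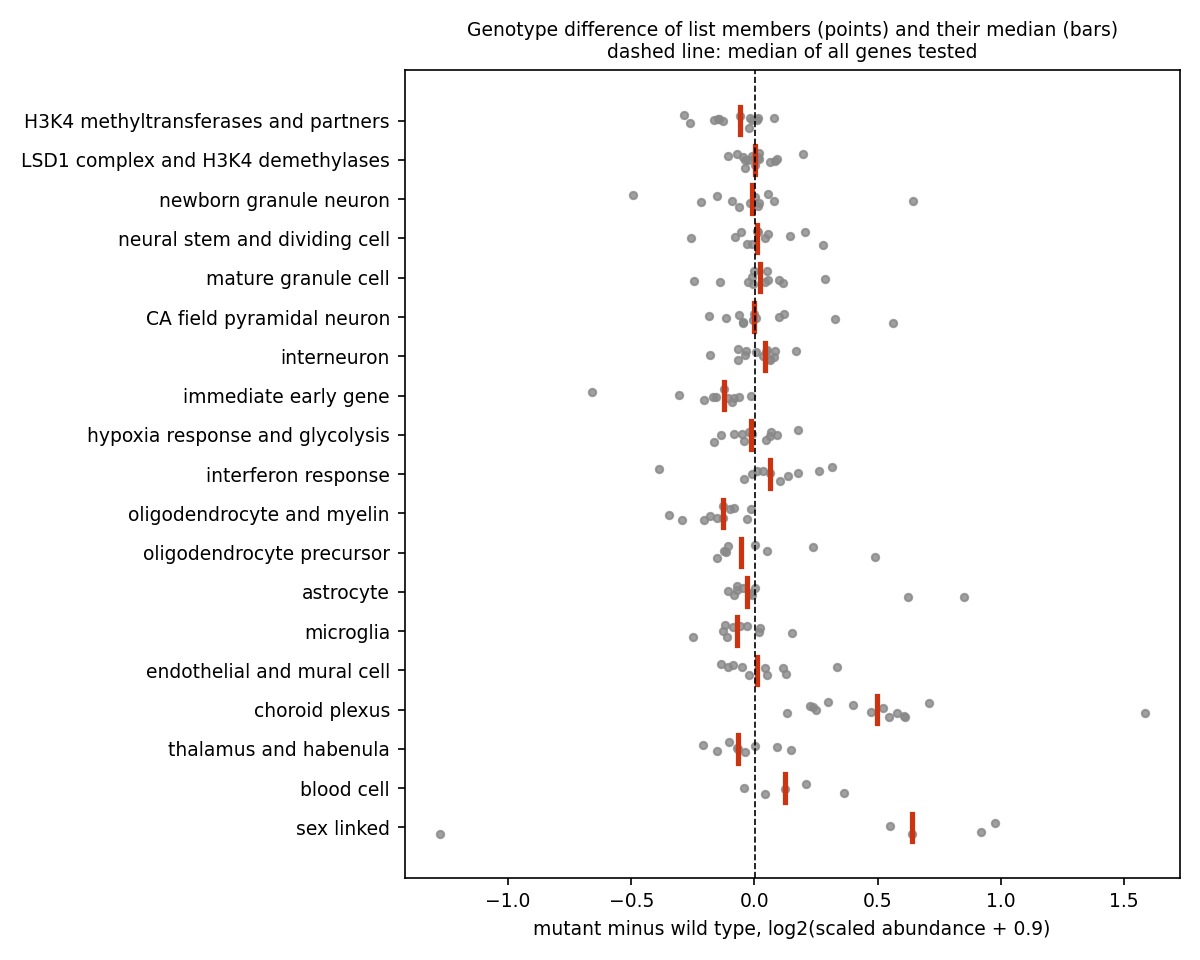
Mutant minus wild type difference on the log2(scaled abundance + 0.9) scale for the members of 19 gene lists, 1 point per gene, with the list median as a red bar and the median of all genes tested (0.00) as a dashed line. Point heights within a list are spread only for legibility. Most medians lie near 0, the choroid plexus and sex-linked lists have medians of 0.50 and 0.64, and no point passed the adjusted threshold.

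Alleles close to a trapped gene are inherited with it, so the neighbourhood on chromosome 15 was described separately. Within 10 Mb of Kmt2d, 194 other genes were tested and 0 were called. Of these, 14 (7.22%) had an unadjusted p under 0.05, against 5.72% over all genes, with 2 higher and 12 lower. The smallest p was that of Grasp, a scaffold protein of postsynaptic receptors, at 26.98 in mutants and 29.8 in wild types (unadjusted p = 0.00432; limma adjusted p = 0.856). The lowest estimate was that of Slc4a8, a bicarbonate transporter, at -0.59, the highest that of Gm49450 at 1.69, and the median was -0.01. The share was 8% within 5 Mb and 7.69% within 20 Mb, with 0 called in both windows. Over the whole of chromosome 15 it was 44 of 652 genes (6.75%), 11 higher and 33 lower, again with 0 called.

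The authors' deposited tables compare the genotypes within each treatment and give 1 value per group and locus, without the single libraries. Their value columns are numbered rather than named, and were read in the order of each table's title, wild type first. Under vehicle, the authors' deposited table called 74 of 32966 tested loci (0.224%), 44 higher (0.133%) and 30 lower (0.091%) in mutants. Under TAK-418, the authors' deposited table called 71 of 32634 (0.218%), 53 higher (0.162%) and 18 lower (0.0552%). The 2 tables share no library. Of 28019 loci tested in both, 22 (0.0785%) were called in the same direction, 21 higher (0.0749%) and 1 lower (0.00357%), and 1 more was called in opposite directions. Of the 21 higher loci, 10 carry no gene symbol.

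Among the 11 with a symbol are several short noncoding RNAs. In the authors' deposited tables, Rnu1a1, the U1 RNA of the spliceosome, went from 40.5 to 2330 under vehicle and from 53.4 to 1766 under TAK-418. Per library, it was at 15.5 in the vehicle mutant 1 and 10.1 in the TAK-418 mutant 2, and at 0 to 1.35 in the other 12. Rnu2-10, a U2 RNA, was at 15.9 and 9.43 in those 2 libraries and 0 to 1.46 elsewhere. Rn7sk, the 7SK RNA that restrains transcription elongation, was at 24.7 and 15.3 in them and 0 to 1.07 elsewhere. Lars2, the mitochondrial leucyl-tRNA synthetase, was at 4475 and 3169 in them and 5.53 to 258 elsewhere.

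The locus of Rpph1, the RNA of ribonuclease P, was assembled in the same 2 libraries, at 3.40 and 2.49, and listed at 0 in the other 12. These 2 libraries were the highest at 13 of the 20 higher loci with any library value. At the other 7 they were not the 2 highest, although the vehicle mutant 1 alone was highest at some of these, such as Gm25360 (0.509, against 0 elsewhere). The Jarid2 locus reached 23969 in the vehicle mutant 1 but 31.3 in the TAK-418 mutant 2, and 22.5 to 4593 in the others. That value lay in a single-exon piece of 431 bases assigned to no gene, while Jarid2 transcripts themselves, which encode a partner of Polycomb complex 2, were at 9.30 ± 0.922 in mutants and 9.76 ± 0.605 in wild types (SD, n = 6 and 8). In the limma fit over libraries, Rnu1a1, Rnu2-10, Rn7sk and Lars2 had log2 differences of 1.34, 1.04, 1.33 and 2.23, with adjusted p-values of 0.869, 0.870, 0.869 and 0.866.

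The single locus called lower in both tables was Dlx6os1, a noncoding RNA of interneuron development also called Evf2. Dlx6os1 in the authors' deposited tables went from 9.04 to 5.05 under vehicle and from 8.18 to 5.04 under TAK-418. Summed per gene from the libraries, Dlx6os1 was at 6.74 ± 0.940 in mutants and 6.16 ± 0.771 in wild types (SD, n = 6 and 8), a log2 difference of 0.10 with an adjusted p of 0.887 (limma). The mutant values, 5.45 to 7.88, and the wild-type values, 5.05 to 7.28, overlapped, and the direction was the opposite of the deposited one. The cause of that difference was not tested.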

How the data were processed

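Hippocampal RNA was analysed in 14 libraries, grouped by the genotype and treatment labels; chromatin data of the study were not analysed here. Per the file headers, the authors assembled transcripts of each library with CLASS 2.1.7, and each deposited transcript carries an abundance score, used here as an FPKM-like value because no label names its unit. The submitters' processing notes list FastQC, TopHat2 2.1.0 and mm10, with no role or order. The authors' deposited comparison tables (4, of which 2 were used, each with 81411 loci) give per group a value taken as FPKM from the column layout, a log2 fold change, a p-value and a q-value, per the file headers; the tool that made them is not given in the sources used here.

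Transcripts were assigned to GENCODE M21 genes (GRCm38, the assembly also called mm10; 55450 genes) by shared introns, or for single exons by at least 50% overlap, and summed per gene. Libraries were scaled by median of ratios. Genes listed above 0 in 3 or more libraries entered the fit as log2(value + 0.9) on treatment and genotype with limma 3.58.1 (lmFit, eBayes with trend) in R 4.3.3, two-sided, with Benjamini-Hochberg adjustment to 0.05; fold changes of low genes are understated on that scale. The fit was tested on simulated data. Within-treatment and interaction results came from a limma fit of the 4 groups on the same values, with 1 estimate of spread per gene. Relative depth came from the step of abundance times length, on which 91.5% to 98.5% of single-exon values fell within 0.05 of a whole multiple; the authors state no totals. Single values were compared with exact permutation tests within treatment. Overlapping, antisense and multicopy genes are uncertain, as strand use and shared reads are not stated.

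Named genes are Kmt2d and Kdm1a, the called genes or else the 8 with the smallest p in each direction, the 2 most abundant members of each list, interaction calls, and up to 6 deposited loci with a symbol, a finite fold change and the same call in both tables; other genes are named as extremes of a list or window or after their values were seen. A member of the myelin list that the rule names is not reported here. The comparison, members, lists and named-gene rule were chosen with earlier results of these data known. Alternatives covered the pseudocount, filter, scaling, gene value, model and single libraries, and 4 more were added after seeing the data. Other steps ran in Python 3.11.15 (scipy 1.17.1, pandas 2.3.3), with plots from matplotlib 3.10.9.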

Additional observations from a re-analysis of the deposited data

Results flagged for a closer look

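Among 24 measures screened in the 2 genotypes, 6 values stood farther from the rest of their group than Dixon's 95% criterion allows, where chance gives about 1 in 20 groups. Of these, 4 belong to the TAK-418 wild type 1: 48430 assembled transcripts, 182100 introns, 16770 genes with a value and a relative depth of 167.6 M, against 39080, 162400, 15540 and 56.1 M in the next wild type. Kdm1a was 30.03 in the vehicle mutant 1, against 33.45 in the next lowest mutant. Gm4841 was 4.399 in the vehicle wild type 1 and 0 in the 7 other wild types. The genotype difference of Pcdhb13 under TAK-418 exceeded that under vehicle by 1.598 on the log2 scale (interaction adjusted p = 0.00194, limma). Pcdhb13 was listed only in the 3 TAK-418 mutants and entered the fit through them, so that p is no support for a difference.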

How the results depend on the processing

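Of 34 alternatives to the fit over all genes, 31 also called 0 genes. The mean of the 2 within-treatment effects called 1 (Pcdhb13), and leaving out single libraries called 0 to 1 (Gm4841, without the vehicle wild type 1). Leaving out the 4 libraries high in choroid plexus genes called 2 (Gm21092 higher, Gxylt1 lower; smallest adjusted p 0.00428), with 3 mutants left. Pcdhb13, Gm4841 and Gm21092 were then listed in mutants alone, so these calls rest on 0s and are no support for a difference. Kmt2d stayed lower in all 34, between -0.39 and -0.16, with adjusted p-values of 0.487 to 0.975. With only the highest transcript per gene, Rbfox3 turned to 0.16 and Map2 to 0.29.

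The 15 genes without overlap became 26 with no scaling (0 higher, 26 lower), where the median of all genes moved from 0.00 to -0.07 and 7.44% of genes at an unadjusted p under 0.05 were higher, against 48.1%. They became 51 without the 2 mutants high in small RNA loci, 38 and 461 without the 2 or 4 libraries high in choroid plexus genes, and 19 to 60 without single libraries. Fewer libraries overlap less often by construction. That count moved by over 1.5 times without the vehicle wild types 1 (36), 2 (25) or 3 (25), the TAK-418 wild types 2 (25), 3 (27) or 4 (37), the vehicle mutants 2 (25) or 3 (29), or the TAK-418 mutants 1 (60), 2 (26) or 3 (28).

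Interaction calls ranged from 0 to 8 without single libraries. They were 0 without the TAK-418 mutant 3, 2 without the vehicle wild type 2 or the TAK-418 wild types 3 or 5, 3 without the TAK-418 wild types 1 or 4, the vehicle mutant 2 or the TAK-418 mutant 2, 5 without the vehicle mutant 1 and 8 without the vehicle mutant 3. The genotype differences in assembled transcripts, introns, genes with a value and relative depth ranged over 904 to 2875, -3228 to 318, -161 to 65.4 and -13.4 to 3.497 M; the upper ends came without the TAK-418 wild type 1. The causes of these shifts were not tested. No paired analysis was possible because the labels give nothing that links libraries of different groups. The fits without the small RNA or choroid plexus libraries, and a fit of protein-coding genes alone, were chosen after seeing the data.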
